A study of Mus musculus with 3 samples.

Results

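The islet hormone genes are the 7 genes Ins2, Iapp, Gcg, Sst, Ppy, Pyy and Ghrl, out of 19938 genes measured by single-gene probe sets. They were chosen by symbol in the platform annotation, and each of the 7 had 1 such probe set, so no choice between probe sets was needed. RNA was measured on 3 arrays, 1 for each group of sorted mouse pancreatic cells on the C57BL/6 background, from mice more than 6 weeks old. Beta cells were pooled from 3 untreated mice of genotype Fbw7 +/+; MIP-GFP, in which beta cells are constitutively labelled with GFP. Fbw7-deleted ductal cells were pooled from 6 mice carrying Fbw7 F/F with the Cre Ck19-CreERT and the reporter R26-LSL-YFP. Wild-type ductal cells were pooled from 6 mice with the same Cre and reporter and Fbw7 +/+. Both ductal groups received tamoxifen on 5 days in a row and were collected 7 days after the last dose. Cre was driven by Ck19, the keratin 19 promoter, so cells of any type that express it could be labelled. Each array used RNA from 30000 sorted cells, of which 18 ng was amplified. Cell type, reporter and tamoxifen cannot be told apart between the beta cell array and the ductal arrays.

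Islets of Langerhans hold several endocrine cell types, each known for 1 main peptide hormone. Beta cells make insulin and co-secrete amylin, alpha cells make glucagon, delta cells make somatostatin, PP cells make pancreatic polypeptide and epsilon cells make ghrelin. All are made as longer precursors that proteases cut in the secretory granules. Endocrine cells of the embryonic pancreas arise from duct-like progenitors, which is why hormone transcripts are read as a sign of endocrine identity in ductal cells. Fbw7, encoded by Fbxw7, is the part of a ubiquitin ligase that binds proteins marked for degradation.

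Because 6 of the 7 genes shared 1 pattern, high in beta cells and low in both ductal groups, the sequences in front of their transcription starts are shown. RefSeq windows (GRCm38.p6) matched 6 of the 7 symbols, and Ins2 is named only. Each line below gives the 250 bases before the most upstream start in the table, 5′ to 3′ on the gene's strand. Capitals mark TAAT, the core bound by homeodomain factors, the cyclic AMP response element TGACGTCA, and the TATA box core TATAA, each searched on both strands and overlaps kept.
Gcg, chr2:62483654-62483903, minus strand: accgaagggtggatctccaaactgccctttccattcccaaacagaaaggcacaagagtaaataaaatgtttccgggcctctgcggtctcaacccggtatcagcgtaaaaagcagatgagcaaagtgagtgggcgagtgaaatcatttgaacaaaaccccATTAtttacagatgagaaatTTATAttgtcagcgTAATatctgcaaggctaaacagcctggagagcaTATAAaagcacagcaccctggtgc
Sst, chr16:23890845-23891094, minus strand: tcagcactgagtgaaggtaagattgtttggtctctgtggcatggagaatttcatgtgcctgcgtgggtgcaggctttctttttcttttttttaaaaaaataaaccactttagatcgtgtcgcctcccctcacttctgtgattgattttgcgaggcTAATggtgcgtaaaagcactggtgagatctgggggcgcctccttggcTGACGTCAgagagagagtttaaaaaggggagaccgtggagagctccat
Iapp, chr6:142298175-142298424, plus strand: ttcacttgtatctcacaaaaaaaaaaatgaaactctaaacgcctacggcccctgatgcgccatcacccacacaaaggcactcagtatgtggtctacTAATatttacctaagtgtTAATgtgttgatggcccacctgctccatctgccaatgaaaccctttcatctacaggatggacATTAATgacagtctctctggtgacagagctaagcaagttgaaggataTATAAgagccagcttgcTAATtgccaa
Ppy, chr11:102101320-102101569, minus strand: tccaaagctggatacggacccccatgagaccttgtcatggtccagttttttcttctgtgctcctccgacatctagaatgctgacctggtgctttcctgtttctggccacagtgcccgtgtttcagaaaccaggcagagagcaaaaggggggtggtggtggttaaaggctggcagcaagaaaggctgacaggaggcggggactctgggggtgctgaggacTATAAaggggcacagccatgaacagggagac
Pyy, chr11:102107833-102108082, minus strand: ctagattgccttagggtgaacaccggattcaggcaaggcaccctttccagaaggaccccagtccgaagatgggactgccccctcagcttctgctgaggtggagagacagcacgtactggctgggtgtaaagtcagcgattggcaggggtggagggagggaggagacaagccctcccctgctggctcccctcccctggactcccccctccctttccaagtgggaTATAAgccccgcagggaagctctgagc

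TAAT occurred 5 times in the Iapp window, 2 times in Gcg and 1 time in Sst, and was not found in the windows of Ppy, Pyy and Ghrl; 55.4% of all 27025 gene windows of this length held it. Near the start, TATAA began 24 bases upstream in Gcg, which held a further copy on the other strand, 27 in both Iapp and Pyy and 31 in Ppy, and it was not found in Sst or Ghrl (23.5% of all windows held it). The response element TGACGTCA began 48 bases upstream in Sst and in none of the other 5 windows, against 1.6% of all windows. Sst also held CTAATG, a longer form of the homeodomain core, which 6.48% of windows held. The E box CANNTG occurred in every window but that of Ppy, and in 66.1% of all windows. A match of letters is a description of these windows only. Ppy and Pyy, which encode related peptides, are neighbours on chromosome 11 in this annotation and lie on the same strand.

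Levels below are the deposited log2 intensities. The floor of an array is its median level over single-gene probe sets, 5.30 in beta cells, 5.24 in Fbw7-deleted and 5.23 in wild-type ductal cells. A single array for each group allows no replicate check and no p-value, and every difference below is one between single arrays. Where 1 of the levels compared was below the floor, the floor takes its place and the fold is a lower bound, written "at least". Levels of different genes come from different probes and are not compared with each other. In pooled cells, fewer cells of a type and less RNA per cell cannot be told apart.

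The hormones of beta cells, insulin and amylin, were high in beta cells and low in both ductal groups. Ins2, an insulin gene, read 11.04 in beta cells, 5.87 in Fbw7-deleted and 5.31 in wild-type ductal cells. Its wild-type ductal level lay just above the floor, and the beta cell level was 36.0-fold above Fbw7-deleted and 53.0-fold above wild-type ductal cells. Iapp, the amylin gene, read 9.86 in beta cells, 4.21 in Fbw7-deleted and 3.78 in wild-type ductal cells. Both ductal levels of Iapp were below the floor, so that beta cells were at least 24.5-fold above Fbw7-deleted and at least 24.6-fold above wild-type ductal cells.

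Glucagon and somatostatin, the hormones of alpha and delta cells, were high in the array labelled beta cells too, and low in both ductal groups. Gcg, the glucagon precursor gene, read 11.00 in beta cells, 5.75 in Fbw7-deleted and 4.77 in wild-type ductal cells. Only its wild-type ductal level was below the floor, and beta cells were 38.3-fold above Fbw7-deleted and at least 54.5-fold above wild-type ductal cells. Sst, the somatostatin gene, read 11.04 in beta cells, 5.40 in Fbw7-deleted and 5.06 in wild-type ductal cells. Beta cells were 49.6-fold above Fbw7-deleted and, with the wild-type ductal level below the floor, at least 55.8-fold above wild-type ductal cells.

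The pancreatic polypeptide family and ghrelin differed less. Pyy, the peptide YY gene, read 10.01 in beta cells, 6.00 in Fbw7-deleted and 5.68 in wild-type ductal cells. Ppy, the pancreatic polypeptide gene, read 8.32 in beta cells, 6.00 in Fbw7-deleted and 5.71 in wild-type ductal cells. All 3 levels of both genes were above the floor, with beta cells 16.2-fold (Pyy) and 5.00-fold (Ppy) above Fbw7-deleted ductal cells, and 20.1-fold and 6.09-fold above wild-type ductal cells. Ghrl, the ghrelin gene, read 6.41 in beta cells and 5.82 in both ductal groups, a 1.5-fold difference that did not reach 2-fold as deposited and did after quantile normalization (log2 1.01 over either ductal group). The order of the arrays as measured was beta cells, then Fbw7-deleted, then wild-type ductal cells for 6 genes, and the ductal arrays tied for Ghrl. For Iapp the order of the ductal arrays rests on levels below the floor in both. For Gcg and Sst it rests on a wild-type ductal level below the floor.

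**Figure D1:**
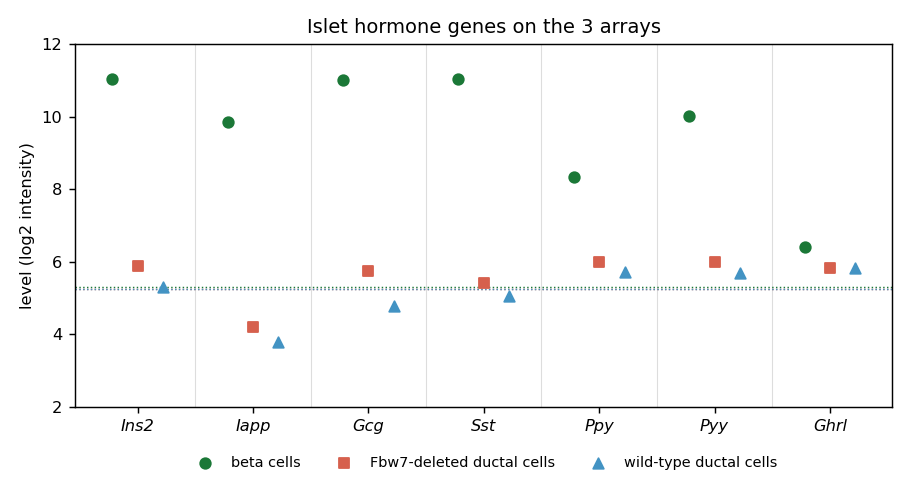
Level (log2 intensity) of the 7 hormone genes, 1 point for each array, with dotted lines at the floors of the 3 arrays (5.30, 5.24 and 5.23). Beta cells lie highest for every gene, from 6.41 for Ghrl to 11.04 for Ins2 and Sst, while no ductal level exceeds 6.00.

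Read against all genes, the count at 2-fold or more for beta cells over wild-type ductal cells was 6 of 7 hormone genes higher, where 6.37% of 11139 tested genes were, and 0 lower, where 25.8% were; a gene was tested when its higher level was above the floor. Against Fbw7-deleted ductal cells the count was also 6 of 7, where 5.13% of 11095 tested genes were at least 2-fold higher, and again 0 were lower, where 23.0% were. The median difference of the hormone genes was log2 5.73 over wild-type and 5.17 over Fbw7-deleted ductal cells, beside -0.11 and -0.05 over all tested genes. With the floor in place of lower levels, both medians of the hormone genes were 4.62, beside -0.09 and -0.03 over all tested genes, and the counts of 6 stayed, where 2.94% and 2.33% of all tested genes were at least 2-fold higher. Both comparisons use the same beta cell array.

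Ranked by the measured difference between beta and wild-type ductal cells, Gcg, Iapp, Sst and Ins2 held places 1 to 4 of 11139 genes, Pyy place 6, Ppy place 49 and Ghrl place 1559. Over Fbw7-deleted ductal cells the same 4 genes held places 1 to 4, led by Iapp. When each level under the floor was set to the floor, Sst led both rankings and Iapp stood at places 5 and 4. Ghrl is thus the hormone gene whose difference lay within the bulk of genes, since 14.0% of tested genes exceeded it over wild-type ductal cells.

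**Figure D2:**
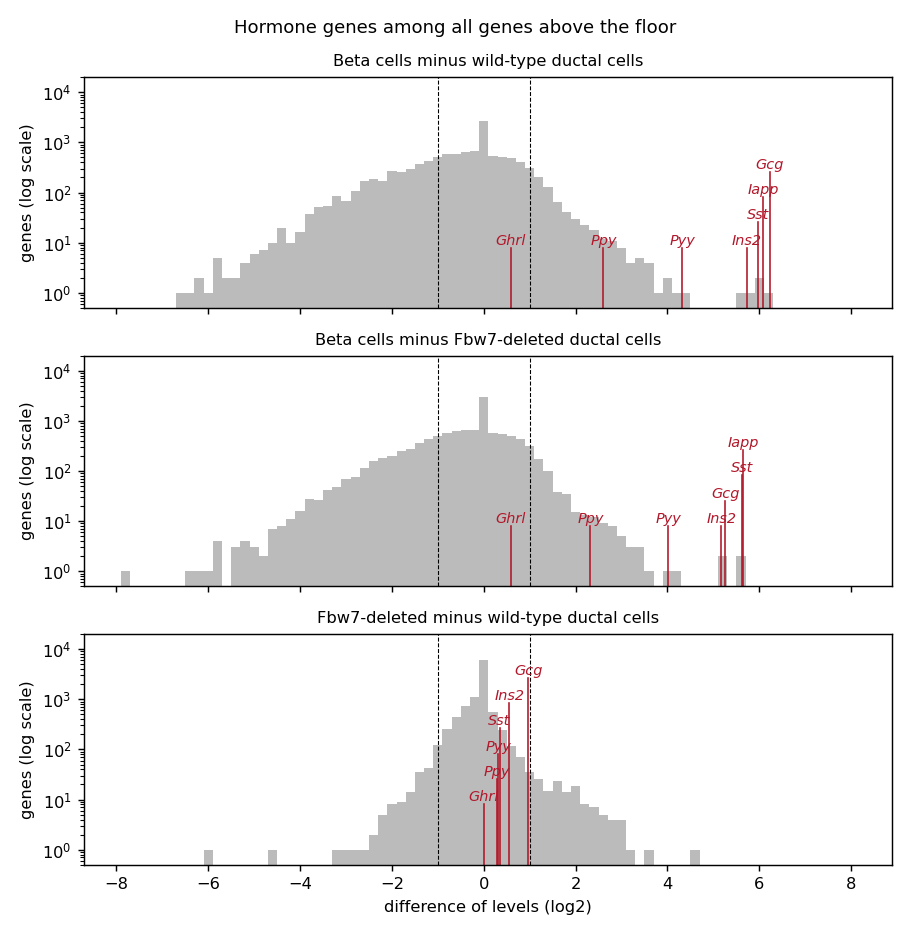
Differences of levels (log2) for all genes above the floor in the 3 comparisons, as counts on a log axis, with the hormone genes marked in red and dashed lines at 2-fold. Differences are drawn as measured, so those with a level below the floor, such as Iapp in both beta cell comparisons, are drawn past their lower bound (log2 4.62 for Iapp). In the ductal comparison the 6 tested genes lie between 0 and 0.97.

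The ductal comparison asks whether hormone transcripts differ once Fbw7 is deleted. None of the 6 hormone genes tested was at least 2-fold higher in Fbw7-deleted ductal cells (1.43% of 10035 tested genes were), and none was at least 2-fold lower (1.81% were). Gcg differed by log2 0.97 as measured but, with its wild-type level below the floor, by 0.51 against the floor, or at least 1.43-fold. Ins2 was 1.47-fold higher (log2 0.56), Pyy 1.24-fold and Ppy 1.22-fold higher, and Sst at least 1.12-fold higher. Ghrl was identical in both arrays as deposited and at -0.0052 with each array centred. Iapp was below the floor in both ductal groups and was not tested; its measured difference was log2 0.43.

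Although small, these differences ran 1 way: 5 of the 6 tested hormone genes were higher by some amount in Fbw7-deleted than in wild-type ductal cells. Over all 10035 tested genes, 16.4% were higher, 35.4% lower and 48.2% identical in both arrays. Genes at levels as low as those of the hormone genes were not set apart as a background. Listed genes below the floor in both ductal arrays, such as Emcn (log2 0.77), Pdx1 (0.71) and Ramp3 (0.68), were also higher in Fbw7-deleted cells. Among such listed genes Penk (-0.13), Cck (-0.06) and Th (-0.0039) were lower, and many were identical. Whether the hormone differences exceed a shift shared by genes of low level was not tested. The median difference was log2 0.33 for the hormone genes, or 0.30 with the floor in place of lower levels, and 0 for all tested genes either way. The 5 genes stayed higher with quantile normalization, with each array centred and with the floor in place of lower levels, and the smallest of these values was 0.17 for Sst. Centring moved every ductal difference by the same log2 -0.0052, so it could not change these signs. The floor could not change them either. Ins2, Ppy and Pyy were above it in both ductal arrays. For Gcg and Sst only the wild-type level was raised, to 5.23, below their Fbw7-deleted levels of 5.75 and 5.40. Of these checks, only quantile normalization was free to change a sign.

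Markers of other cell types differed between the ductal arrays as well. Of 11 tested acinar markers, 10 were higher in Fbw7-deleted ductal cells, with a summed intensity over 13 measured markers of 31077 against 12265 in wild-type ductal cells. All 11 tested duct markers were higher there, with sums over 13 measured markers of 6249 and 2849. Mesenchymal markers were lower in 9 of 10, with sums of 7198 and 11071. Over all tested genes, 16.4% were higher and 35.4% lower by any amount. At 2-fold or more, 9 acinar and 6 duct markers were higher, beside 1.43% of all tested genes. At that threshold 4 mesenchymal markers were lower, or 3 with the floor in place of lower levels, beside 1.81% and 1.63% of all tested genes. Mesothelial markers were high in both ductal arrays and alike in them. All 8 were above the floor in each, beside 49.5% of all genes in Fbw7-deleted and 49.3% in wild-type ductal cells. The sums of these markers were 9764 in Fbw7-deleted and 9804 in wild-type ductal cells, against 353.1 in beta cells. Among them Msln, mesothelin, read 10.73 in Fbw7-deleted and 10.61 in wild-type ductal cells, and Muc16 10.07 and 10.05; Krt19, whose promoter drives the Cre, is in both the duct and the mesothelial list. Of the duct markers, Cftr and Car2 were below the floor in both ductal arrays. No measured marker is at 0, as log2 intensities have no true zero. Of the acinar transcription factors, Ptf1a and Rbpjl were below the floor on all 3 arrays, and Bhlha15 lay just above it at 5.38 on all 3. The part of these shifts in the hormone differences was not tested.

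Most tested prohormone processing and granule genes were higher in beta cells, and the count of lower ones was near the share of all genes. Of 15 measured, 13 were tested between beta and wild-type ductal cells, with 9 higher in beta cells by 2-fold or more (6.37% of all tested genes) and 3 lower (25.8%). The counts were 9 and 3 over Fbw7-deleted ductal cells as well, and 9 and 3 in both comparisons with the floor in place of lower levels. Scg3, a granin of dense-core granules, read 7.19 in beta cells, 3.85 in Fbw7-deleted and 3.73 in wild-type ductal cells, and Chga, the granin chromogranin A, read 7.28, 4.89 and 4.85. Slc30a8, the granule zinc transporter, read 6.84, 4.23 and 4.02 in the same order of arrays. All 3 were below the floor in both ductal arrays, so that against wild-type ductal cells beta cells were at least 3.88-fold (Scg3), 4.14-fold (Chga) and 3.04-fold (Slc30a8) higher.

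The 3 lower members of the list were Pam, Cpe and Ide. Pam, the enzyme that amidates peptide ends, read 6.23 in beta cells, 7.40 in Fbw7-deleted and 8.58 in wild-type ductal cells, and beta cells were 5.12-fold below wild-type ductal cells. Cpe, the carboxypeptidase that trims prohormone fragments, read 5.43, 7.92 and 7.67, with beta cells 4.71-fold below wild-type ductal cells. Between the ductal groups 6 genes were tested, with 0 at least 2-fold higher (1.43% of all tested genes) and 1 lower (1.81%). This was Pam, 2.26-fold lower in Fbw7-deleted cells and at log2 -0.93 after quantile normalization. Cpe was at log2 0.25, Ptprn at 0.02 and Scg5 at -0.32, and Ero1b and Ide were identical in both ductal arrays.

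Receptors of the hormones had a median difference of 0 between beta and wild-type ductal cells. Of 22 receptor genes, 11 were tested in that comparison, of which 2 were at least 2-fold higher, beside 6.37% of all tested genes, and 1 was at least 2-fold lower in beta cells, beside 25.8%. With the floor in place of lower levels, 1 was higher, beside 2.94% of all tested genes, and 1 lower. Insr, the insulin receptor, was the lower one, at 5.60 in beta cells, 7.98 in Fbw7-deleted and 8.19 in wild-type ductal cells, so that beta cells were 5.20-fold and 6.01-fold below these groups. Gcgr, the glucagon receptor, read 6.33 in beta cells and 5.34 in both ductal groups, a difference of log2 0.99 that passed 2-fold after quantile normalization (1.31 over wild-type ductal cells).

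Amylin acts through the calcitonin receptor, encoded by Calcr, joined to a Ramp protein as coreceptor. Calcr was below the floor on all 3 arrays, at 4.50 in beta cells and 4.12 in both ductal groups. Ramp1, a coreceptor of this kind, read 6.30 in beta cells, 5.96 in Fbw7-deleted and 5.30 in wild-type ductal cells; beta cells were 2.0-fold above wild-type ductal cells, and the difference was log2 0.93 with each array centred. Ramp3 was the other receptor gene at least 2-fold higher as measured, but at least 1.29-fold against the floor. The somatostatin receptor Sstr4 read 6.98 in beta cells and 7.54 in both ductal groups, and this difference turned to log2 0.37 over wild-type ductal cells after quantile normalization. Npy1r, a receptor for peptide YY, read 4.93, 5.24 and 5.54 in the same order of arrays, with beta and Fbw7-deleted cells below the floor. Ghsr, the ghrelin receptor, read 5.63, 5.31 and 5.16, and Glp1r, the receptor of the glucagon-like peptide from the Gcg precursor, was below the floor on all 3 arrays (5.20, 4.92 and 4.92). Between the ductal groups, 9 receptor genes were tested and 0 were 2-fold apart, beside 1.43% higher and 1.81% lower of all tested genes. Ramp1 (log2 0.65), Ghsr (0.07 against the floor) and Npy4r (0.07) were higher in Fbw7-deleted cells. Npy1r (-0.30) and Insr (-0.21) were lower, and 4 were identical, Igf1r among them. Gipr, the receptor of the gut hormone GIP, read 5.42 in beta cells and 4.96 in both ductal groups, at least 1.14-fold higher in beta cells.

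Of the enzymes that act on the secreted hormones, Dpp4, Ide and Mme read higher in both ductal groups than in beta cells. Dpp4, a surface protease that trims glucagon-like peptide and peptide YY, read 5.72 in beta cells, 9.41 in Fbw7-deleted and 8.87 in wild-type ductal cells. Beta cells were thus 12.9-fold below Fbw7-deleted and 8.87-fold below wild-type ductal cells. Ide, the insulin-degrading enzyme, read 5.52 in beta cells and 6.92 in both ductal groups, 2.63-fold lower in beta cells. Mme, the peptidase neprilysin, read 5.22 in beta cells, 6.75 in Fbw7-deleted and 5.89 in wild-type ductal cells, with beta cells at least 2.72-fold below Fbw7-deleted ductal cells. Prcp read 6.22 in beta and Fbw7-deleted cells and 6.40 in wild-type ductal cells, Ece1 was identical in all 3 at 6.80, and Mboat4, the enzyme that acylates ghrelin, was below the floor throughout. Between the ductal groups 5 of the 6 genes were tested and 0 were 2-fold apart, beside 1.43% higher and 1.81% lower of all tested genes. Mme was at log2 0.85 and Dpp4 at 0.54 in Fbw7-deleted over wild-type ductal cells.

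Other peptide hormone genes, of gut, brain and heart, were measured for 32 of 36 listed. Between beta and wild-type ductal cells 13 were tested, with a median of log2 0.62. At least 2-fold higher in beta cells were 4 (6.37% of all tested genes), and 0 were lower (25.8%). With the floor in place of lower levels 2 were higher, beside 2.94% of all tested genes. Gal, the galanin gene, read 7.39 in beta cells, 5.43 in Fbw7-deleted and 4.65 in wild-type ductal cells, so beta cells were 3.90-fold above Fbw7-deleted and at least 4.45-fold above wild-type ductal cells. Sct, the secretin gene, read 6.35, 5.38 and 5.12, Penk, the enkephalin precursor gene, 6.12, 4.32 and 4.45, and Ucn3, the beta cell peptide urocortin 3, 5.93, 4.68 and 4.62. Taken against the floor, Sct stayed at least 2.17-fold above wild-type ductal cells, while Penk was at least 1.84-fold and Ucn3 at least 1.62-fold above. Between the ductal groups 9 were tested and 0 were 2-fold apart, beside 1.43% higher and 1.81% lower of all tested genes. Identical were 5, Gast, Adm, Nppc and Gnrh1 among them. Gal (log2 0.78, or 0.19 against the floor), Sct (0.25, or 0.14 against the floor) and Npy (0.15) were higher in Fbw7-deleted cells and Calcb (-0.26) lower.

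Transcription factors of hormone genes had a median difference of log2 0.52 between beta and wild-type ductal cells, or 0.41 with the floor in place of lower levels. Of 13 tested, 3 were at least 2-fold higher in beta cells, beside 6.37% of all tested genes. These were Pax6, Pax4 and Nkx6-1, at 5.31, 5.80 and 6.19 in beta cells and below the floor in both ductal groups. Against the floor they were at least 1.05-fold, 1.48-fold and 1.94-fold above wild-type ductal cells. The count at 2-fold was then 0, beside 2.94% of all tested genes. Foxo1, a forkhead factor held back by insulin signalling, read 5.87 in beta cells, 6.55 in Fbw7-deleted and 6.57 in wild-type ductal cells. Creb1, which encodes a factor that binds the cyclic AMP response element, read 6.96 in beta cells and 7.32 in both ductal groups, a difference of -0.36 that turned to 0.53 over wild-type ductal cells after quantile normalization.

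Between the ductal groups, 2 of 7 tested factors were at least 2-fold higher in Fbw7-deleted cells (1.43% of all tested genes) and 0 lower (1.81%). Hhex, a homeobox factor of delta cells that ducts also express, read 7.24 in Fbw7-deleted and 5.20 in wild-type ductal cells, at least 4.02-fold higher, and 6.05 in beta cells. Glis3, a zinc finger factor that binds the insulin promoter and is also expressed in ducts, read 7.50 in Fbw7-deleted and 5.95 in wild-type ductal cells, 2.92-fold higher, and 5.91 in beta cells. Isl1, a homeobox factor of islet cells, was lower, at 5.41 in Fbw7-deleted and 6.21 in wild-type ductal cells, with 5.55 in beta cells. Foxa2, a forkhead factor of gut and pancreas, was at log2 0.64 in Fbw7-deleted over wild-type ductal cells, short of 2-fold. For Hhex and Glis3 the order of arrays differed from that of every hormone gene, with Fbw7-deleted ductal cells above beta cells.

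**Figure D3:**
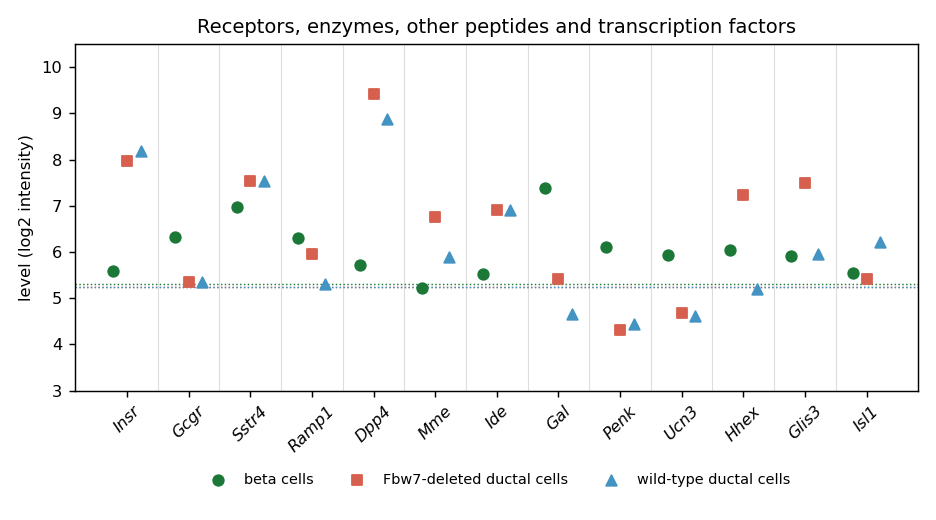
Level (log2 intensity) on the 3 arrays of receptors (Insr, Gcgr, Sstr4, Ramp1), enzymes (Dpp4, Mme, Ide), other peptide genes (Gal, Penk, Ucn3) and transcription factors (Hhex, Glis3, Isl1), with dotted lines at the floors. Insr and Dpp4 read at least 7.98 in both ductal groups and at most 5.72 in beta cells, and Hhex and Glis3 read highest in Fbw7-deleted ductal cells.

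Markers of other cell types were read on the beta cell array without the hormone genes themselves, against the 50.02% of all 19938 genes that lie above its floor by the floor's construction. Of 11 other beta cell markers 8 were above it, with Pdx1, G6pc2 and Glp1r below, and Mafa held the same level (5.49) on all 3 arrays. With the floor in place of lower levels, 3 of the 11 were at least 2-fold above wild-type ductal cells, beside 2.94% of all tested genes. Of 7 other alpha cell markers 4 were above the floor and of 6 other markers of delta, PP and epsilon cells 3 were, near the share of all genes. With the floor, 1 alpha cell marker, Ttr, was at least 2-fold above wild-type ductal cells, and it was not above Fbw7-deleted ductal cells, at 9.25 in beta cells, 9.44 in Fbw7-deleted and 7.35 in wild-type ductal cells. None of the 6 was at least 2-fold above either ductal group.

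Acinar markers were above the floor of the beta cell array in 11 of 13, with a summed intensity of 39710 in beta cells against 12265 in wild-type ductal cells. Endothelial markers were above it in 7 of 8 and leukocyte markers in 7 of 9. With the floor 2 of each list were at least 2-fold above wild-type ductal cells, beside 2.94% of all tested genes. The endothelial marker Cd34 was at least 2-fold lower, at 6.90 in beta cells and 10.39 in wild-type ductal cells. Summed intensities in beta and wild-type ductal cells were 642.1 and 1623 for endothelial markers, and 997.0 and 718.3 for leukocyte markers. The endothelial sum of wild-type ductal cells was carried by Cd34, since the next level there was 6.33, for Esam. Its direction was not that of most members. Of 7 tested endothelial markers, 5 had a positive difference, beta minus wild-type ductal cells, and 2, Cd34 and Esam, a negative one. The part of these cell types in the hormone levels was not tested.

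Genes whose 2 differences, beta and Fbw7-deleted over wild-type ductal cells, lay nearest to those of each hormone gene were sought among 9376 genes above the floor in beta cells. The measure is the Euclidean distance of the log2 differences over 3 arrays, so it describes these arrays only. It was also taken with every level below the floor raised to it, an alternative chosen after the data had been seen. For Ins2, Gcg and Sst the nearest gene by either measure was Trdn, the muscle protein triadin, which was above the floor on all 3 arrays. Its distances were 0.80, 0.78 and 1.08 as measured and 0.80, 0.85 and 1.19 with the floor. Trdn was nearest to Iapp as measured too (1.05), where Peg3, an imprinted zinc finger gene, was nearest with the floor (1.16). The next gene as measured was Klk1b5, a glandular kallikrein below the floor in wild-type ductal cells, which stood at places 3 to 5 with the floor. The third was the zymogen granule gene Cuzd1 for Gcg, above the floor on all 3 arrays, and Lyz2, a lysozyme of myeloid cells, for Ins2, Iapp and Sst. Lyz2 was below the floor in both ductal arrays, and with the floor it stood at places 74 to 83.

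The genes nearest to Pyy and Ppy as measured were all below the floor in both ductal arrays, so these matches rest on background signal. For Pyy they were Lyz2, Iqca and the endothelial gene Emcn, at places 80, 3 and 52 with the floor, where Peg3 was nearest (0.92). For Ppy they were Tyrobp, Gpr65 and Nckap1l, which are known from leukocytes, at places 15, 2137 and 131 with the floor. With the floor the nearest to Ppy were Arfgef2, Ppp2r5c and Gnao1 (0.29 each). Arfgef2 and Ppp2r5c were above the floor on all 3 arrays and identical in both ductal arrays. Gnao1 was below the floor in both ductal arrays. For Ghrl, identical in both ductal arrays, the nearest as measured were Tssk2, Sft2d3 and Hey1, at distances of 0.0015 or less and likewise identical in both ductal arrays. Tssk2 was below the floor in both ductal arrays and stood at place 664 with the floor, while Sft2d3 and Hey1 kept places 2 and 3. Lhb was then nearest to Ghrl (0.0003), and it was below the floor in both ductal arrays. Across all 19938 genes, 59.1% held the same value in both ductal arrays.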

How the data were processed

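Expression was measured on Affymetrix mouse gene arrays from 3 pools of sorted cells, 1 array for each group. The authors deposited log2 intensities for 35556 probe sets, made with RMA per the submitters' processing notes. No source used here states the version of RMA, or whether all arrays were processed in 1 run. The 3 arrays do not share 1 distribution (SD over probe sets of 1.57 in beta cells, 1.97 in Fbw7-deleted and 2.02 in wild-type ductal cells), and 47.2% of probe sets are identical in both ductal arrays, which pulls medians of small differences to 0. The number of arrays limits the precision.

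The platform annotation gave 1 gene for 21789 probe sets, several for 1621 and none for 12146, and 21698 matched RefSeq (GRCm38.p6) by gene ID. The probe set with the highest mean was used for each of 19938 genes. A gene was tested if its higher level was above the floor of its array (a tie, above both floors), and differences of log2 values were counted at 2-fold, with no p-value. Ins1 and other genes without a single-gene probe set were not analysed here. Named are the 7 hormone genes, up to 3 members at each end of each list and the 3 genes nearest in pattern to each hormone gene, leaving out predicted genes, RIKEN clones, microRNAs, immunoglobulins and olfactory, vomeronasal and taste receptors. Glp1r, Calcr, Mboat4, Peg3, Arfgef2, Ppp2r5c, Gnao1, Lhb and the marker genes were named after their values were seen. Creb1 and Prcp were among the 3 members at an end of their lists. The members and lists were chosen with earlier results of these data known. Repeats were run with the floor left out or set at the 75th percentile, with 1.5-fold or 4-fold as the threshold, after quantile normalization or centring, and with the mean or the lowest of a gene's probe sets; raising levels below the floor to it was added after seeing the data. The steps were tested on simulated data. Software was numpy 2.4.6, pandas 2.3.3 and matplotlib 3.10.9 under Python 3.11.15.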

Additional observations from a re-analysis of the deposited data

How the results depend on the processing

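No paired analysis was possible because each group is 1 array, and no replicate could be left out. The counts of hormone genes at least 2-fold apart kept within 1.5 times of their value in 53 of 54 repeats. The exception was the 1.5-fold threshold, with which 1 gene, Gcg, was called higher in Fbw7-deleted than in wild-type ductal cells as measured (at least 1.43-fold against the floor). With a floor at the 75th percentile no hormone gene could be tested between the ductal groups, so the count of 0 there says nothing. Each hormone gene has 1 probe set, so the probe set choice could not change its values. The 54 repeats include those of the probe set choice and the ductal ones at the 75th percentile, so fewer were free to move. The 35 repeats below also include those of the probe set choice. Of 35 repeats of single-gene differences in each comparison, 0 were negative for beta cells over either ductal group; 2 were negative between the ductal groups, both of Ghrl, at -0.0052 and -0.0030. The measured differences of Ghrl over Fbw7-deleted and wild-type ductal cells, log2 0.58 each, were 1.01 each after quantile normalization.

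The background moved more. Among genes 2-fold apart between beta and wild-type ductal cells, 19.8% were higher as deposited and 37.3% after quantile normalization; against Fbw7-deleted cells the shares were 18.2% and 35.8%, and between the ductal groups 44.2% and 60.3%. Quantile normalization gave a median over tested genes of 0.09 between beta and wild-type ductal cells, where the deposited values gave -0.11. Genes called higher for beta cells over wild-type ductal cells numbered 710 as deposited, 1192 after quantile normalization, 1478 with no floor, 1558 at 1.5-fold, 102 at 4-fold and 327 with levels raised to the floor; over Fbw7-deleted cells they numbered 569, 1051, 1207, 1439, 63 and 258 in the same order. Between the ductal groups 144 were higher and 182 lower as deposited, 282 and 728 at 1.5-fold and 41 and 15 at 4-fold, and quantile normalization gave 140 and 92.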
